A study of Mus musculus with 4 samples.

Results

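Cytochrome P450 enzymes of families 1 to 4 were described here as the 75 gene symbols, of 24346 in the tables, that consist of Cyp, a family number from 1 to 4, 1 subfamily letter and a member number. Of these, 51 reached 1 FPKM (the read count scaled for transcript length and library size) in at least 1 library, 14 were above 0 but under 1 FPKM in every library, and 10 were listed at 0 in every library. The libraries came from liver of male ob/ob mice, a strain made obese by the absence of leptin, fed from 6 weeks of age for 4 weeks. The CD group received a chow diet of casein, sucrose and corn oil, and the WD group a Western-type diet with cocoa butter as its fat. In the CD+7KC and WD+7KC groups the same diets also held 0.01% 7-ketocholesterol (7KC), an oxidation product of cholesterol, and cholesterol made up 1% of every diet, the controls included. Each group had 1 library, and the number of mice behind a library is not given in the sources used here, so the differences below lack replicates and carry no p-value.

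Cytochrome P450s are haem enzymes that insert 1 oxygen atom into a substrate with electrons from NADPH, passed on by P450 oxidoreductase and cytochrome b5. Families 1 to 3 are known in liver for the oxidation of drugs, pollutants and steroids, and family 4 for the oxidation of fatty acids at their methyl end. Several Cyp2c and Cyp2j enzymes also form epoxides from arachidonic acid, and many members are known to be induced through the receptors AhR, CAR, PXR or PPARα, or to differ between male and female mice.

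The libraries were of similar size, with between 9405000 (WD) and 12102000 (WD+7KC) mapped fragments as read from the step that 1 read adds to a low FPKM value. Their FPKM sums lay between 696062 and 715605 in all but WD+7KC, where the sum was 602059. All 11 hepatocyte markers found in the tables were above 1 FPKM, with summed levels between 49138 and 61545 FPKM, and none of them changed more than 2-fold in any comparison. Most were slightly lower, however. Their median log2 fold change was -0.19 in CD+7KC relative to CD and -0.17 in WD+7KC relative to WD, with 10 lower and 1 higher in each. It was -0.20 in WD relative to CD (7 lower, 4 higher) and -0.16 in WD+7KC relative to CD+7KC (8 lower, 3 higher). Y-linked Ddx3y, Kdm5d, Eif2s3y and Uty were above 1 FPKM in at least 1 library, and Xist was listed at 0 in all of them. Log2 fold changes were taken on FPKM + 0.1, and a member is said to rise or fall only where it passed 2-fold (a log2 fold change of 1 or -1). Where 4 values follow a gene without library names, they stand in the order CD, CD+7KC, WD and WD+7KC. Intervals are exact 95% intervals on estimated read numbers and cover counting error between a pair of libraries only. In such bulk samples, fewer cells of a type and less RNA per cell cannot be told apart.

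A few members carried most of the P450 mRNA. The 75 members together reached 15120 and 15018 FPKM in CD and CD+7KC, against 10312 and 7016 in WD and WD+7KC, or 2.11%, 2.16%, 1.47% and 1.17% of all FPKM in the respective library. The 10 highest members held between 78.5% and 83.2% of that sum in every library, and Cyp2e1 and Cyp3a11 alone held 47.5% and 41.7% in CD and CD+7KC, against 51.5% and 37.6% in WD and WD+7KC. The total was about equal in the chow libraries, at a ratio of 0.993, lower in WD at 0.682 of CD, and lowest in WD+7KC at 0.467 of CD+7KC. Rescaled to equal library sums, the last comparison remained lower (a log2 ratio of -0.89 in place of -1.10), while the chow comparison, close to 0, turned from -0.01 to 0.03.

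**Figure D1:**
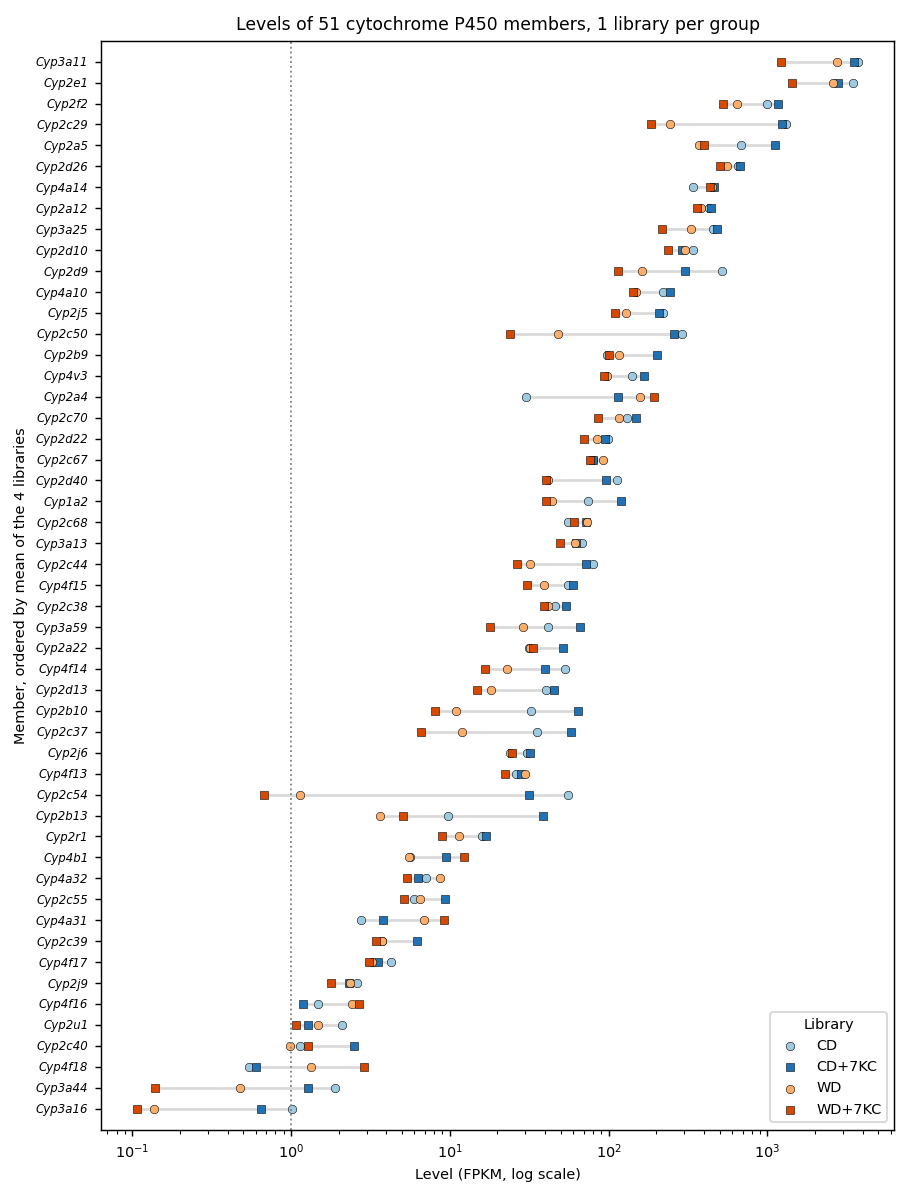
Level of each of the 51 members with at least 1 FPKM in any library, in FPKM on a log axis, with 1 point per library and members ordered by their mean over the 4 libraries. Levels span from under 1 FPKM for Cyp3a16 and Cyp3a44 in WD+7KC to 3735 FPKM for Cyp3a11 in CD, and the WD+7KC point is the lowest in 38 of the 51 members.

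The members at 0 in every library were Cyp2b19, Cyp2b23, Cyp2c66, Cyp2j11, Cyp2j12, Cyp2j13, Cyp2w1, Cyp4a29, Cyp4f40 and Cyp4x1. Those above 0 but under 1 FPKM were Cyp1a1, Cyp1b1, Cyp2c65, Cyp2c69, Cyp2d11, Cyp2d12, Cyp2d34, Cyp2g1, Cyp2j8, Cyp2s1, Cyp2t4, Cyp3a57, Cyp4f37 and Cyp4f39. Just inside the limit lay Cyp3a16 with a highest value of 1.01 FPKM and Cyp3a44 with 1.91, and just outside it lay Cyp1a1 with 0.861 and Cyp2c69 with 0.809. A further 11 symbols of these families were spelled outside the naming rule, such as pseudogenes and symbols with a letter after the number, and 3 of them reached 1 FPKM (Cyp2d37-ps, Cyp4a12a and Cyp4a12b).

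Many members occur as near copies in tandem clusters, which bears on their values. Of the 50 described members with a GENCODE transcript, 12 shared no 75-base window, the length of a read, with another gene's transcript, 20 shared more than 10% of their windows, and Cyp2c40 shared 57.1%. How reads were divided among such copies is not given in the sources used here, so the levels of strongly sharing members are uncertain. The 10 members of highest mean differed in this respect. Cyp3a11 shared 3.66%, Cyp2e1 2.96% and Cyp2c29 0.527% of their windows, whereas 4 of the 10 shared more than 10%, with 25.5% in Cyp2a5, 14.3% in Cyp2a12, 11.2% in Cyp3a25 and 26.7% in Cyp2d10.

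The first comparison asked how the Western diet differed from chow without 7KC. More members fell than rose: 13 of the 51 (25.5%) fell in WD relative to CD, beside 2.56% of the 11342 genes with at least 1 FPKM, and 3 members rose (5.88%), beside 3.26% of those genes. The members' median log2 fold change was -0.41, beside -0.00 for all of these genes, and 38 members were lower and 13 higher, beside 50.1% of genes lower. At a 1.5-fold limit 17 members were lower (33.3%, beside 7.64% of genes) and 4 higher (7.84%, beside 9.76%). Both WD-fed libraries lay below both chow libraries in 33 members (64.7%), beside 28.4% of genes, and above them in Cyp2a4, Cyp4a31, Cyp4f16 and Cyp4f18 (7.84%), beside 26.2%. The members that fell belonged to the Cyp2b (2), Cyp2c (5), Cyp2d (3), Cyp3a (2) and Cyp4f (1) subfamilies.

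**Figure D2:**
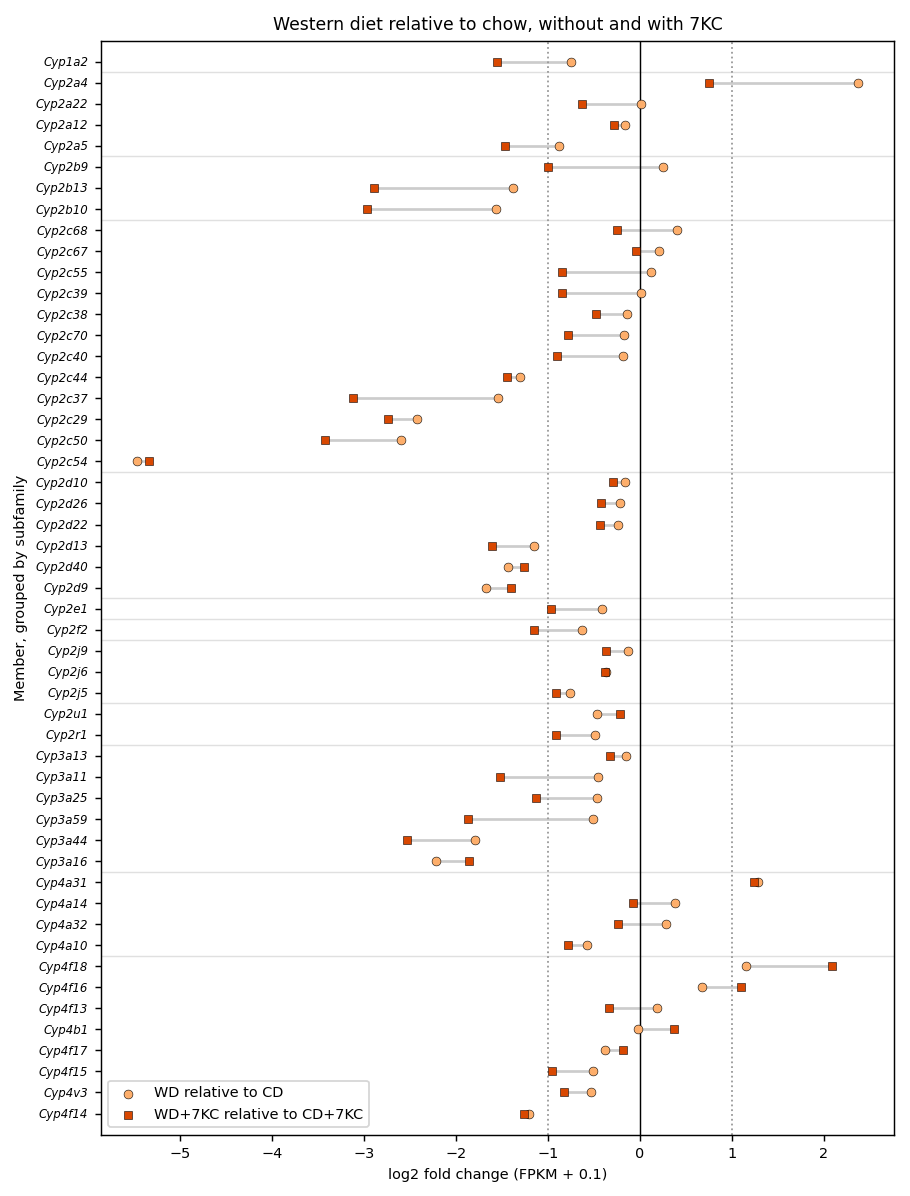
Log2 fold change of the Western diet relative to chow for each of the 51 members, as circles without 7KC (WD relative to CD) and squares with 7KC (WD+7KC relative to CD+7KC), on FPKM + 0.1, grouped by subfamily. Dotted lines mark 2-fold. Cyp2c54 lies farthest to the left at -5.47 and -5.34, and Cyp2a4 farthest to the right without 7KC at 2.38.

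The Cyp2c subfamily, whose enzymes are known as arachidonic acid epoxygenases and drug oxidases, held the largest falls. Its summed level was 2094 and 2034 FPKM in CD and CD+7KC, against 671 and 516 in WD and WD+7KC. Cyp2c29, the most abundant of them, was at 1308 and 1239 FPKM in CD and CD+7KC, against 243 and 186 in WD and WD+7KC. Both WD-fed libraries thus lay far below both chow libraries, and Cyp2c29 moved from rank 66 among all genes in CD to rank 418 in WD. Its log2 fold change in WD relative to CD was -2.43, with a counting interval of -2.48 to -2.38. Cyp2c50 was at 291 and 259.6 FPKM in CD and CD+7KC, against 47.9 and 24.01 in WD and WD+7KC, and its log2 fold change in WD relative to CD was -2.60. Cyp2c54 went from 55.2 FPKM in CD and 31.6 in CD+7KC to 1.15 in WD and 0.681 in WD+7KC. Relative to CD, the log2 fold change in WD was -5.47 (interval -6.38 to -4.91), the lowest of any member, and rested on an estimated 957.6 reads in CD and 17.1 in WD. Cyp2c37 was at 35.3 and 58.3 FPKM in CD and CD+7KC, against 12.0 and 6.59 in WD and WD+7KC, with a log2 fold change of -1.55 (interval -1.80 to -1.32) in WD relative to CD. Cyp2c44, which lies apart from the others on the same chromosome, was at 79.3, 72.1, 32.1 and 26.4 FPKM in the same order, and its log2 fold change was -1.30. The other 7 described Cyp2c members did not pass 2-fold in WD relative to CD, and their log2 fold changes ran from -0.18 to 0.40.

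On chromosome 19 the falls were unevenly placed. In the Cyp2c cluster (GRCm38, chr19:39007019-40187333, 14 members) the described members that fell were Cyp2c29 and the adjacent Cyp2c37, Cyp2c54 and Cyp2c50. Their neighbours Cyp2c38, Cyp2c39, Cyp2c67, Cyp2c68 and Cyp2c70 stayed within 2-fold. Cyp2c38 for example was at 46.0 and 54.4 FPKM in CD and CD+7KC, against 41.7 and 39.0 in WD and WD+7KC, and Cyp2c70, which forms muricholic acids from other bile acids, was at 131, 149, 116 and 86.2 FPKM in the same order. Cyp2c37, Cyp2c50 and Cyp2c54 shared 13.8%, 17.8% and 14.1% of their 75-base windows with other transcripts, and Cyp2c50 was the transcript most shared by both Cyp2c37 and Cyp2c54. Reads could thus pass between these members, and all of them fell.

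**Figure D3:**
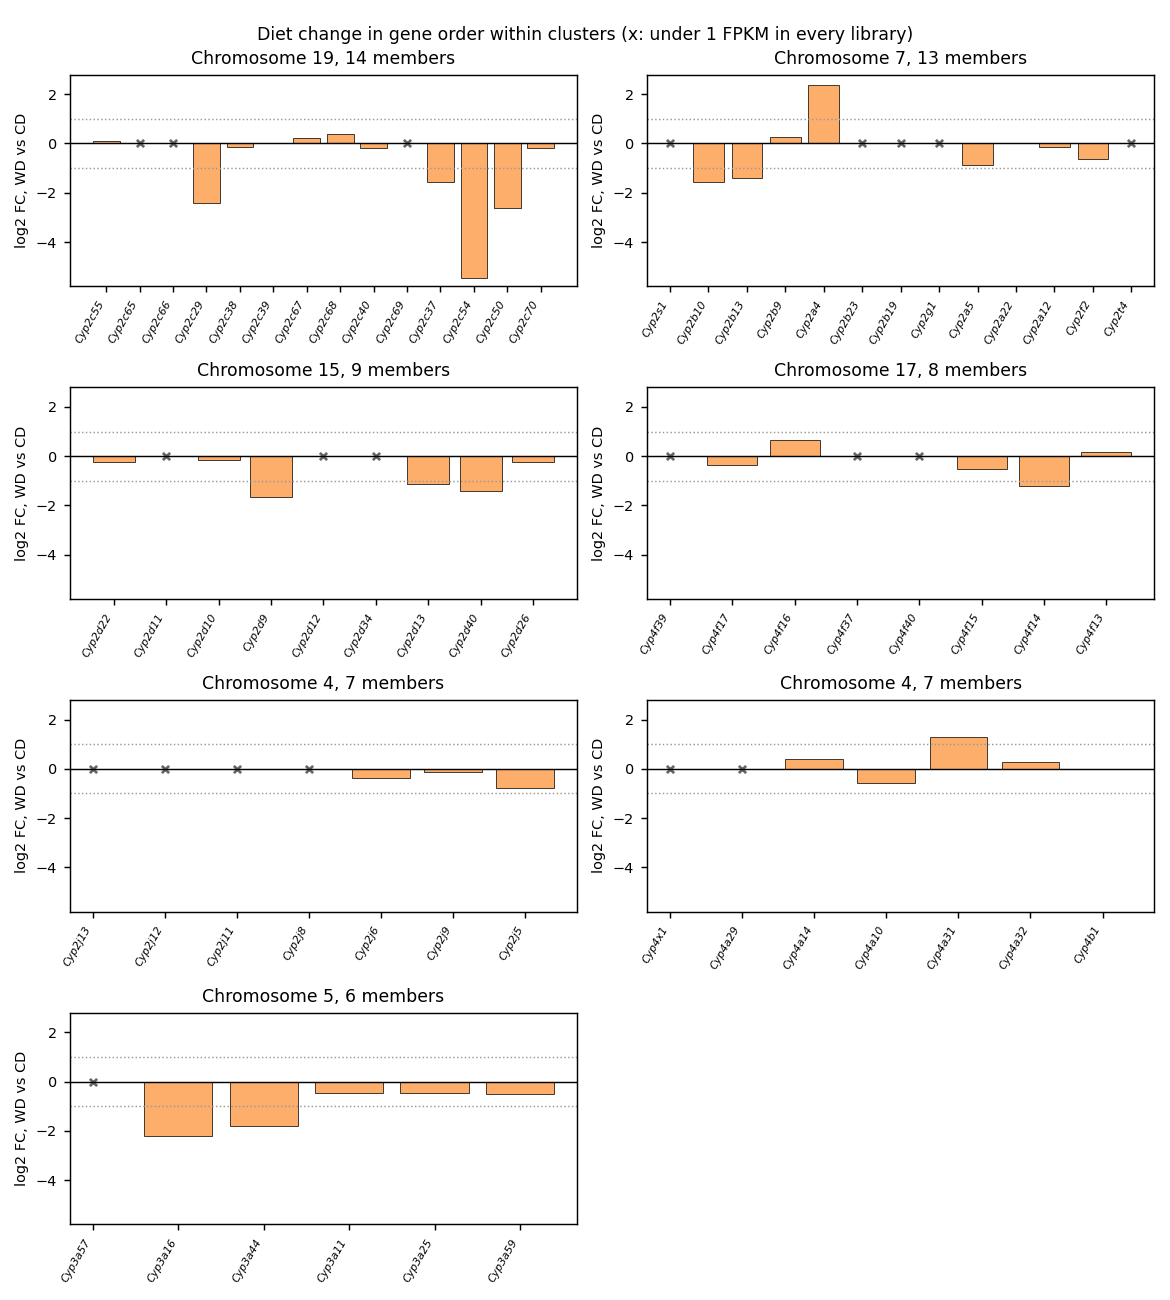
Log2 fold change of WD relative to CD for the members of the 7 clusters with at least 6 members, in gene order along the chromosome, with crosses for members under 1 FPKM in every library and dotted lines at 2-fold. In the chromosome 19 cluster the falls are Cyp2c29 and the adjacent Cyp2c37, Cyp2c54 and Cyp2c50, and in the chromosome 7 cluster Cyp2a4 rises beside Cyp2b10 and Cyp2b13, which fall.

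The sequences just before the starts of these genes are shown because copies that fell and copies that did not lie side by side. They are the 250 bases before the RefSeq start (GRCm38.p6), 5′ to 3′ on the gene's strand, with capitals on matches to the motifs searched on both strands: TATAAA of the TATA box, CAAAGTCCA for HNF4A, GTTAAT for HNF1, TGTTTAC for FOXA, AGGTCA for nuclear receptors, GCGTG for AhR and TTCNNNGAA for STAT factors. The genes were chosen after their values were seen, and Cyp2c54 and Cyp2c44 had no entry. The first 3 fell in WD relative to CD and the last 2 did not pass 2-fold.
Cyp2c29 (chr19:39286835-39287084, plus strand): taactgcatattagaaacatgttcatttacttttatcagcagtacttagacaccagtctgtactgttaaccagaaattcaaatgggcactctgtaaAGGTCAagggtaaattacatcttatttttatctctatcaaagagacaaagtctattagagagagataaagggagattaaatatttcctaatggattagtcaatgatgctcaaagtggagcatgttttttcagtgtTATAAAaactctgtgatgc
Cyp2c37 (chr19:39992174-39992423, plus strand): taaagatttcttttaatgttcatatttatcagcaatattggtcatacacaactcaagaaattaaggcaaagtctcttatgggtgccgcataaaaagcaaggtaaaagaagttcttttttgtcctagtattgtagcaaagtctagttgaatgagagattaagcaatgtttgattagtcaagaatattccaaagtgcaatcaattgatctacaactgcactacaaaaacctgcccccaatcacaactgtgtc
Cyp2c50 (chr19:40089429-40089678, plus strand): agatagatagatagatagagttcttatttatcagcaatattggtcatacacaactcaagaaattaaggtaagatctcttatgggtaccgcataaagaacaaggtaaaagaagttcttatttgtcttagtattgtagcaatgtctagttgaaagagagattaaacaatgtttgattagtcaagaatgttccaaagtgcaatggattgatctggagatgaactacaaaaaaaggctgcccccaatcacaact
Cyp2c38 (chr19:39463076-39463325, minus strand): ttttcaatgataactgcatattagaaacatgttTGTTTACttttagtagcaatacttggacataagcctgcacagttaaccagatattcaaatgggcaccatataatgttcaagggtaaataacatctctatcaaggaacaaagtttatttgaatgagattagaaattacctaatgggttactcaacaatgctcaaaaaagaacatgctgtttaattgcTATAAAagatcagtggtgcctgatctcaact
Cyp2c67 (chr19:39649043-39649292, minus strand): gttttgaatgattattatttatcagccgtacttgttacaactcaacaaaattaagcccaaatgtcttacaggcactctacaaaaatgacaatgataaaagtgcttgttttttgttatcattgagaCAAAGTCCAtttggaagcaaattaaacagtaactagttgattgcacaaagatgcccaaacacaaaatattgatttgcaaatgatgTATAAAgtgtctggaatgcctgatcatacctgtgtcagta

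Among these 5 genes the closest pair was Cyp2c37 and Cyp2c50, with 84.3% identity over the alignment, gaps counted, and both fell. Cyp2c29 was 68.8% identical to Cyp2c38, which did not pass 2-fold, and 54.5% identical to Cyp2c37, which fell. Neither Cyp2c37 nor Cyp2c50 held a match to any of the 7 motifs in this window, while Cyp2c29 held TATAAA and AGGTCA. Over the 42 described members with a promoter entry, TATAAA was found in 20 (47.6%), beside 6.72% of the 8685 promoters of genes with at least 1 FPKM and 12.98% of all 27025 promoters, and in 5 of the 10 that fell. CAAAGTCCA was found in 6 of the 42 (14.3%), beside 0.438% of expressed and 0.377% of all promoters, and in 1 of the 10 that fell. AGGTCA occurred in 11 members (26.2%), beside 11.2% of expressed and 13.8% of all promoters. GTTAAT occurred in 6 (14.3%), beside 4.08% and 6.54%, and TGTTTAC in 6 (14.3%), beside 2.30% and 3.06%. GCGTG occurred in 6 (14.3%), beside 45.4% and 28.3%, and TTCNNNGAA in 2 (4.76%), beside 6.07% and 7.14%. A match is only a run of letters, and TATAAA, CAAAGTCCA and GTTAAT can each occur within longer motifs not searched here.

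In the Cyp2d cluster (chr15:82370527-82794294, 9 members) neighbours also differed. Cyp2d9, a steroid 16α-hydroxylase known to be far higher in male than in female mice, was at 521 and 305 FPKM in CD and CD+7KC, against 163 and 115 in WD and WD+7KC, with a log2 fold change of -1.67 (interval -1.74 to -1.61) in WD relative to CD. Cyp2d40 was at 113 and 96.4 FPKM in CD and CD+7KC, against 41.7 and 40.1 in WD and WD+7KC, with a log2 fold change of -1.43. Cyp2d13, annotated in RefSeq as a transcribed pseudogene, was at 40.6, 45.5, 18.2 and 14.8 FPKM, a log2 fold change of -1.15. These 3 were lower in both WD-fed libraries than in either chow library. Cyp2d26 (651, 676, 559 and 504 FPKM in CD, CD+7KC, WD and WD+7KC), Cyp2d10 (340.3, 291, 303 and 238 FPKM) and Cyp2d22 did not pass 2-fold. All 6 described Cyp2d members were lower in WD than in CD, their median being -0.69.

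Male-biased liver genes that are not members, from a list chosen with earlier results known, are given here beside Cyp2d9. Of the 13 with at least 1 FPKM, 5 fell and 1 rose in WD relative to CD, and their median was -0.68, beside -0.00 for all genes. Serpina1e fell by 4.01, Slco1a1 by 3.16, Elovl3 by 2.48, Cyp4a12b by 2.28 and Mup3 by 1.30 on the log2 scale, and Mup20 rose by 1.59. Of the 10 female-biased genes with at least 1 FPKM in any library, 4 rose (Cyp17a1, A1bg, Abcd2 and Slc22a27), beside 3.26% of all genes. Their median was 0.15. A1bg was at only 0.112 FPKM in CD and 0.326 in WD, and passed 1 FPKM in CD+7KC alone, at 1.68. Sult2a2 fell and was listed at 0 in both WD-fed libraries. Cyp4a12a, the male-biased arachidonic acid hydroxylase outside the naming rule, was at 119 and 109 FPKM in CD and CD+7KC, against 73.9 and 22.2 in WD and WD+7KC.

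Cyp2b and Cyp2a genes lie together (chr7:25802475-27158668, 13 members) and differed in direction. Cyp2b10, the standard target gene of the receptor CAR, was at 32.7 and 64.4 FPKM in CD and CD+7KC, against 11.0 and 8.14 in WD and WD+7KC, with a log2 fold change of -1.56 (interval -1.82 to -1.33) in WD relative to CD. Cyp2b13, which is known as female-biased, was at 9.72 and 38.8 FPKM in CD and CD+7KC, against 3.66 and 5.11 in WD and WD+7KC, with a log2 fold change of -1.38 (interval -1.85 to -0.96). Cyp2b9, also known as female-biased, was at 97.4, 202, 116 and 100.4 FPKM, and its log2 fold change of 0.25 did not pass 2-fold. Cyp2b10 and Cyp2b13 were thus lower in both WD-fed libraries, whereas for Cyp2b9 the CD+7KC library alone stood apart.

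Cyp2a4, a testosterone 15α-hydroxylase, was at 30.2 and 115 FPKM in CD and CD+7KC, against 157 and 193 in WD and WD+7KC. CD was the low library, and the rise in WD relative to CD was 2.38 on the log2 scale (interval 2.24 to 2.52), the highest of any member. Cyp2a5, a coumarin hydroxylase, moved the other way with diet, from 681 FPKM in CD and 1110.2 in CD+7KC to 369 in WD and 400.3 in WD+7KC, and its change of -0.88 on the log2 scale did not pass 2-fold. Cyp2a12 (427, 441, 383 and 361 FPKM in CD, CD+7KC, WD and WD+7KC) and Cyp2a22 stayed within 2-fold in every comparison. The starts of Cyp2a4 and Cyp2a5 are shown because this pair differed in direction although the bases before their starts are nearly the same. Capitals again mark the motif matches, here GTTAAT and TATAAA in both.
Cyp2a4 (chr7:26306942-26307191, plus strand): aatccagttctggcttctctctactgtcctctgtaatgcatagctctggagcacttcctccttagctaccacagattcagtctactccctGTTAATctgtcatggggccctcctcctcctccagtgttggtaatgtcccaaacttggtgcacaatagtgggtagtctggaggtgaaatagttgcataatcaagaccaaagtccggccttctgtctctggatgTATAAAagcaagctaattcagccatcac
Cyp2a5 (chr7:26835089-26835338, plus strand): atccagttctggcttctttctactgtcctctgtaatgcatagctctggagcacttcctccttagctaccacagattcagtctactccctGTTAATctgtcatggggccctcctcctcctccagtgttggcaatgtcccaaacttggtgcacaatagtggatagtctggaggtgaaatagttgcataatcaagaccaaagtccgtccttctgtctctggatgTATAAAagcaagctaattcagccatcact

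The bases before the starts of Cyp2a4 and Cyp2a5 were 97.6% identical over the alignment, gaps counted, with 245 identical and 4 differing bases. Their transcripts also resemble each other, so that 21.0% of the 75-base windows of Cyp2a4 occur in Cyp2a5 as well, and reads of Cyp2a5, the more abundant gene, could be counted for Cyp2a4. Between WD and CD the pair differed in direction, whereas with 7KC both were higher, Cyp2a4 by 1.92 and Cyp2a5 by 0.71 on chow and by 0.30 and 0.12 under the Western diet.

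Cyp3a genes encode the main drug-oxidising P450s, and Cyp3a11, the mouse counterpart of human CYP3A4 and a known target of the receptor PXR, was the most abundant member. The cluster of 6 members lies at chr5:145345279-146113287, and Cyp3a13 apart from it. All 6 described Cyp3a members were lower in WD than in CD, their median being -0.49. Only the least abundant, Cyp3a16 and Cyp3a44, passed 2-fold. Cyp3a16 was at 1.01 and 0.653 FPKM in CD and CD+7KC, against 0.138 and 0.108 in WD and WD+7KC, which corresponds to 16.9, 11.0, 2.0 and 2.0 estimated reads, and its log2 fold change of -2.22 had an interval of -6.03 to -0.79. Cyp3a44, known as female-biased, was at 1.91, 1.29, 0.481 and 0.140 FPKM, with a log2 fold change of -1.79 (interval -3.31 to -0.87). These 2 calls rested on few reads and were lost with a pseudocount of 1. Cyp3a11 was at 3735 and 3491 FPKM in CD and CD+7KC, against 2724 and 1214 in WD and WD+7KC, and its log2 fold change of -0.46 in WD relative to CD did not pass 2-fold.

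In family 4, 1 member fell and 2 rose in WD relative to CD. The PPARα targets Cyp4a14 and Cyp4a10, which hydroxylate fatty acids, did not pass 2-fold in any comparison. Cyp4a14 was at 342 and 458 FPKM in CD and CD+7KC, against 446 and 436 in WD and WD+7KC, and Cyp4a10 at 221, 245, 149 and 142 FPKM. Cyp4a31 was at 2.78 and 3.83 FPKM in CD and CD+7KC, against 6.89 and 9.18 in WD and WD+7KC, with a log2 fold change of 1.28 in WD relative to CD, and shared 13.9% of its windows with other transcripts. Of the 16 non-CYP targets of PPARα with at least 1 FPKM, Cpt1b and Acot2 rose in WD relative to CD and 0 fell, and their median was -0.04. Cyp4f14, which inactivates leukotriene B4, was at 53.3 and 39.8 FPKM in CD and CD+7KC, against 23.1 and 16.6 in WD and WD+7KC, with a log2 fold change of -1.21. Cyp4v3, a fatty acid hydroxylase and the highest of the remaining family 4 members, was at 141, 167, 97.6 and 93.8 FPKM and did not pass 2-fold.

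Cyp4f18 and Cyp4f16 were higher in both WD-fed libraries. Cyp4f18 (chr8:71988482-72009626), known as a leukotriene B4 hydroxylase of neutrophils and other myeloid cells, was at 0.546 and 0.604 FPKM in CD and CD+7KC, against 1.34 and 2.91 in WD and WD+7KC, which corresponds to 9.0, 10, 18.9 and 52.8 estimated reads. Its log2 fold change in WD relative to CD was 1.16, with an interval of 0.08 to 2.62, and did not pass 2-fold with a pseudocount of 1. Cyp4f16 was at 1.48, 1.20, 2.42 and 2.68 FPKM, and its log2 fold change of 0.67 in WD relative to CD did not pass 2-fold. The order WD+7KC, WD, CD+7KC, CD in Cyp4f18 was also that of the summed level of 16 macrophage markers, which was 870 FPKM in WD+7KC, 460.4 in WD, 409 in CD+7KC and 273 in CD. The order of the chow libraries in Cyp4f18 is not resolved by its reads (interval -1.31 to 1.62 in CD+7KC relative to CD). The share of all genes with this order was not counted. All 16 macrophage markers reached 1 FPKM in some library, and 13 of them were higher in WD than in CD. Their part in the Cyp4f18 values was not tested.

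Of the other abundant members, none passed 2-fold in WD relative to CD. Cyp2e1 (chr7:140763739-140774987), which oxidises ethanol and other small molecules, was at 3444 and 2778 FPKM in CD and CD+7KC, against 2585 and 1424 in WD and WD+7KC, with a log2 fold change of -0.41. Cyp2f2, which oxidises naphthalene and lies mainly in periportal liver cells, was at 996, 1169, 645 and 528 FPKM, a log2 fold change of -0.63. Cyp1a2, a pericentral enzyme induced through AhR, was at 74.2 and 119 FPKM in CD and CD+7KC, against 44.1 and 40.4 in WD and WD+7KC, with a log2 fold change of -0.75. The arachidonic acid epoxygenase Cyp2j5 was at 219, 208, 129 and 110.2 FPKM, and Cyp2r1, a vitamin D 25-hydroxylase, at 16.03, 16.9, 11.4 and 8.96 FPKM. All of these were lower in both WD-fed libraries than in either chow library. The pericentral and periportal lists, without members, had medians of 0.06 and -0.00 in this comparison.

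With 7KC in both diets, more members passed 2-fold between the diets. In WD+7KC relative to CD+7KC, 20 of the 51 members fell (39.2%), beside 3.23% of all genes, and 3 rose (Cyp4a31, Cyp4f16 and Cyp4f18, 5.88%), beside 6.29%. The median was -0.85, beside -0.01 for all genes, and 46 members were lower and 5 higher, beside 51.6% of genes lower. At the 1.5-fold limit 31 members were lower (60.8%, beside 8.8% of genes) and 4 higher (7.84%, beside 13.6%). The 7 members that passed 2-fold downwards here and not in WD relative to CD were Cyp1a2, Cyp2a5, Cyp2b9, Cyp2f2, Cyp3a11, Cyp3a25 and Cyp3a59. Their log2 fold changes in WD+7KC relative to CD+7KC were -1.56, -1.47, -1.01, -1.15, -1.52, -1.14 and -1.87 in that order. Those of Cyp2b9, Cyp2f2 and Cyp3a25 did not pass 2-fold after rescaling to equal library sums, nor did that of Cyp2b9 with upper-quartile scaling or a pseudocount of 1. That the diet difference itself depended on 7KC was not tested.

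**Figure D4:**
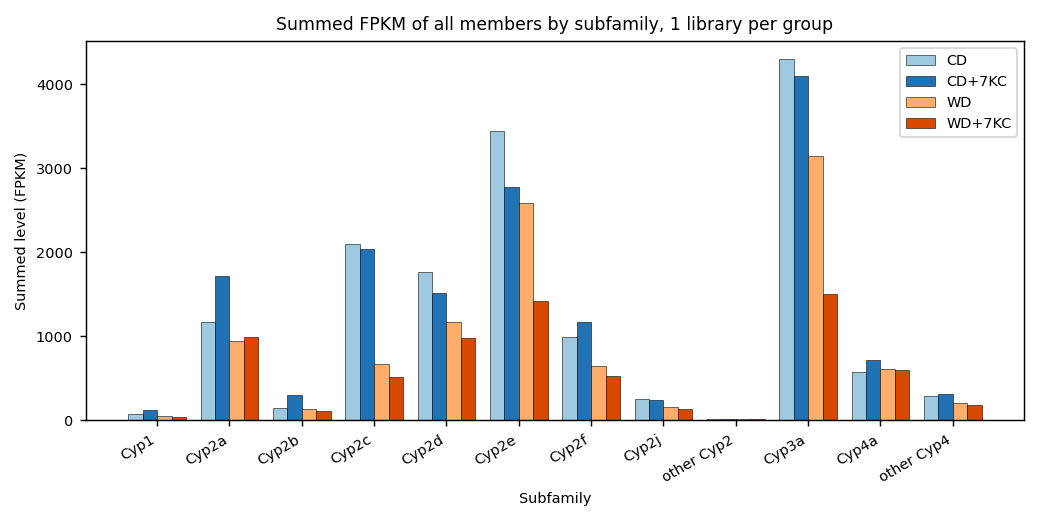
Summed level of all members of each subfamily, in FPKM on a linear axis from 0, with 1 bar per library. The Cyp2c bars are lower in both WD-fed libraries (671 and 516 FPKM) than in the chow libraries (2094 and 2034), and the Cyp3a bar of WD+7KC (1500.2) is less than that of WD (3144).

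The second question was how 7KC changed P450 mRNAs within each diet. On chow, members of the Cyp2a and Cyp2b subfamilies were higher with 7KC. In CD+7KC relative to CD, 4 of the 51 members rose (7.84%), beside 1.76% of all genes, and 0 fell, beside 1.23%. At the 1.5-fold limit 13 members were higher (25.5%, beside 5.52% of genes) and 3 lower (Cyp2c54, Cyp2d9 and Cyp2u1, 5.88%, beside 3.83%). The median was 0.08, beside -0.00 for all genes. Cyp2b13 rose by 1.98 on the log2 scale (interval 1.76 to 2.24), Cyp2a4 by 1.92 (interval 1.78 to 2.07) and Cyp2b9 by 1.05 (interval 0.97 to 1.13). Of these, Cyp2a4 and Cyp2b13 shared 22.1% and 16.4% of their windows with other transcripts. The fourth was Cyp2c40, at 1.14 and 2.49 FPKM in CD and CD+7KC, against 0.992 and 1.29 in WD and WD+7KC, whose log2 fold change of 1.07 had an interval of 0.34 to 1.97 and rested on a transcript with many shared windows, and which did not pass 2-fold with a pseudocount of 1. Cyp2b10 was just inside 2-fold at 0.98 (interval 0.84 to 1.12). The summed Cyp2b level was 139.7 FPKM in CD and 305 in CD+7KC, a ratio of 2.18.

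Cyp1a2, Cyp2a5, Cyp2a22, Cyp2c37, Cyp2c39, Cyp2c55, Cyp3a59 and Cyp4b1 passed 1.5-fold but not 2-fold upwards on chow, with log2 fold changes between 0.63 and 0.74. Most abundant members differed less: Cyp2c29 by -0.08, Cyp3a11 by -0.10 and Cyp2e1 by -0.31. Cyp2c54 and Cyp2d9 were lower by log2 fold changes of -0.80 and -0.77. The non-CYP targets of CAR and PXR had a median of 0.16, and of these 13 genes Gstm3 rose by 1.53. Of 18 pericentral genes other than members, 16 were higher, with a median of 0.20, and Gstm1 rose by 1.17. Of 17 periportal genes, 11 were higher, with a median of 0.12, and Cdh1 fell by 1.14, beside 5501 of 11342 genes higher. Among the 13 male-biased genes, 11 were lower (median -0.24), and Serpina1e, Slco1a1 and Selenbp2 changed by -2.62, -2.05 and -1.47. Among the 10 female-biased genes, 6 were higher and 4 lower (median 0.36). A1bg and Sult2a2 rose by 3.07 and 2.47, from only 0.112 and 1.02 FPKM in CD. Cyp2b9 and Cyp2b13, which rose, are known as female-biased, and Cyp2d9 as male-biased. Nr1i3, which encodes CAR, was at 45.6 FPKM in CD and 72.5 in CD+7KC. The part of Nr1i3 and of the listed genes in the members' values was not tested.

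Under the Western diet the abundant Cyp3a and Cyp2e1 mRNAs were lower with 7KC. In WD+7KC relative to WD, 2 of the 51 members fell (3.92%), beside 1.09% of all genes, and 2 rose (3.92%), beside 3.81%. At the 1.5-fold limit 9 members were lower (17.6%, beside 3.61% of genes) and 2 higher (3.92%, beside 9.35%). The median was -0.28, beside -0.02 for all genes, and 41 members were lower and 10 higher, beside 53.3% of all genes lower. Abundant genes were lower more often: of the 5182 genes with at least 10 FPKM, 3582 were lower, with a median of -0.11. The 39 members at that level had a median of -0.28. Cyp3a11 fell by 1.17 on the log2 scale (interval -1.19 to -1.15) and moved from rank 29 among all genes in WD to rank 51 in WD+7KC. Cyp3a44 fell by 1.27, but its interval of -4.33 to 0.28 included no change. Cyp2e1 had a log2 fold change of -0.86 (interval -0.88 to -0.84), Cyp2c50 of -0.99, Cyp2c54 of -0.67 and Cyp2c37 of -0.85. Cyp3a25 was at 456 and 479 FPKM in CD and CD+7KC, against 329 and 218 in WD and WD+7KC, with a log2 fold change of -0.59, and Cyp3a59 at 41.4, 66.0, 28.9 and 17.9 FPKM, a log2 fold change of -0.68. The summed Cyp3a level was 3144 FPKM in WD and 1500.2 in WD+7KC, a ratio of 0.477.

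Values relative to WD+7KC move with scaling, since its FPKM sum to less than those of the other libraries. Rescaled to equal sums, the median of all genes in WD+7KC relative to WD was 0.19 and that of the members -0.07. There 21 members were higher and 30 lower, beside 23.8% of genes lower. After rescaling 1 member fell in place of 2, beside 0.714% of genes, and the 2 rises were kept, beside 6.19%. Cyp3a11 no longer passed 2-fold. The counts at the 1.5-fold limit were not repeated after rescaling, which shifts WD+7KC relative to WD by 0.22. Of the 9 members lower at that limit, Cyp2c54, Cyp3a25, Cyp3a59 and Cyp4a32 lay closest to it, at -0.67, -0.59, -0.68 and -0.67. Of the 51 members, 41 lay below the median of all genes before and after rescaling. A scaling moves all genes of a library alike, so that count tells nothing about the effect of scaling. The summed levels of Cyp3a, Cyp2e1, Cyp2c, Cyp2d and Cyp2f2 stayed lower in WD+7KC than in WD under every scaling (Cyp3a at a log2 ratio of -0.85 after rescaling and -1.07 before). Those of Cyp1, Cyp2b, Cyp2j, Cyp4a and other family 4 members were lower before rescaling and higher after it. WD+7KC was the lowest library in 38 members (74.5%), beside 31.8% of genes, and after rescaling in 26, beside 10.7% of genes.

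The members that rose with 7KC under the Western diet were Cyp4b1 and Cyp4f18. Cyp4b1, an enzyme best known from lung that oxidises short-chain fatty acids and protoxins, was at 5.67 and 9.50 FPKM in CD and CD+7KC, against 5.57 and 12.3 in WD and WD+7KC. Both 7KC libraries lay above both libraries without 7KC, and the log2 fold change was 1.12 under the Western diet (interval 0.78 to 1.498) and 0.74 on chow. Cyp4f18 rose by 1.06 in WD+7KC relative to WD, with an interval of 0.34 to 1.96, and this call was lost with a pseudocount of 1. Cyp4f18 was also under 1 FPKM in both chow libraries and under 10 FPKM in all. Macrophage and endothelial markers were higher in the same comparison. All 16 macrophage markers were higher and 8 rose, with a median of 0.998. All 12 endothelial markers were higher and 10 rose, with a median of 1.52 and summed levels of 109 and 148 FPKM in CD and CD+7KC, against 86.0 and 226 in WD and WD+7KC. Lymphocyte markers were low, with sums of 2.15 to 8.70 FPKM and with Cd3d, Cd3e, Cd4, Cd8a, Ms4a1 and Ncr1 among those under 1 FPKM. Stellate cell markers summed to 165 to 219 FPKM, cholangiocyte markers to 50.7 to 191, adipocyte markers to 214 to 340.2, with Adipoq, Lep and Plin1 under 1 FPKM, and erythroid markers to 104 to 191. The part of these cells in the members' values was not tested.

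**Figure D5:**
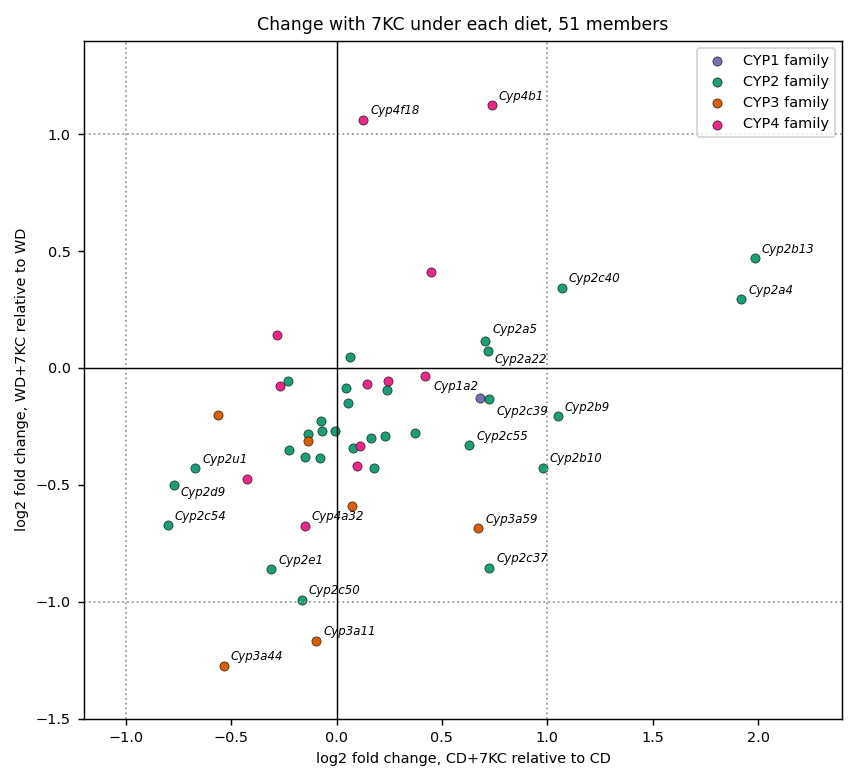
Log2 fold change with 7KC on chow (horizontal axis) and under the Western diet (vertical axis) for the 51 members, on FPKM + 0.1, coloured by family, with dotted lines at 2-fold. Cyp2b13 and Cyp2a4 lie far to the right near 0 on the vertical axis, Cyp3a11 and Cyp3a44 lie at the bottom, and Cyp2c37 and Cyp3a59 lie to the right and below 0.

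Set side by side, the changes with 7KC differed by diet in some members. The change under the Western diet was lower than that on chow by more than 1 on the log2 scale in 7 members (13.7%), beside 2.26% of all genes, and higher by more than 1 in 0, beside 4.21%. The 7 were Cyp2a4, Cyp2b9, Cyp2b10, Cyp2b13, Cyp2c37, Cyp3a11 and Cyp3a59. Cyp2b10 for example had a log2 fold change of 0.98 on chow and -0.43 under the Western diet, Cyp2b9 of 1.05 and -0.21, and Cyp3a11 of -0.10 and -1.17. The count was not repeated after rescaling to equal library sums, which shifts WD+7KC relative to WD by 0.22 on the log2 scale. Cyp3a11, with a difference of -1.07 between the diets, lay close to the limit. With 1 library per group the difference between the diets was not tested.

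None of 9 electron donors and partners passed 2-fold in any comparison. Por, the P450 oxidoreductase, was at 128 and 116 FPKM in CD and CD+7KC, against 151 and 126 in WD and WD+7KC, and Cyb5a, cytochrome b5, at 2232, 2214, 2102 and 1524 FPKM. Of 13 genes of haem synthesis and breakdown, Alas1, the rate-limiting enzyme of haem synthesis, rose by 1.23 in WD+7KC relative to CD+7KC, and Hmox1, which breaks haem down, fell by 1.13 in CD+7KC relative to CD and by 1.08 in WD relative to CD.

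Of 24 regulators of P450 transcription with at least 1 FPKM, Bcl6 was among those that fell in WD relative to CD, by 1.01, and the median of the list was -0.13. Nr1i3 was at 45.6 and 72.5 FPKM in CD and CD+7KC, against 29.4 and 19.2 in WD and WD+7KC, and fell by 1.91 in WD+7KC relative to CD+7KC. Its order of libraries, highest in CD+7KC, then CD, WD and WD+7KC, was also that of 15 of the 51 members (29.4%), beside 7.84% of genes. These were Cyp1a2, Cyp2a12, Cyp2b10, Cyp2c37, Cyp2c38, Cyp2c70, Cyp2d13, Cyp2d26, Cyp2f2, Cyp2r1, Cyp3a25, Cyp3a59, Cyp4a10, Cyp4f15 and Cyp4v3. In some of them the reads do not resolve the full order. The interval included no change for Cyp1a2, Cyp2c38, Cyp4a10 and Cyp4v3 in WD+7KC relative to WD. It did so for Cyp2a12 and Cyp2r1 in CD+7KC relative to CD. Rescaled to equal library sums, 9 members had this order (17.6%), beside 3.34% of genes, and Cyp1a2 was not among them. Nr1i2, which encodes PXR, was at 37.4, 42.9, 38.4 and 34.5 FPKM, and Ahr, Ppara and Hnf4a did not pass 2-fold in any comparison. Of the 13 non-CYP targets of CAR and PXR, Ces2a, Gsta2 and Sult1d1 fell and Alas1 rose in WD+7KC relative to CD+7KC, with a median of -0.44. In WD relative to CD, where Nr1i3 had a log2 fold change of -0.63, these targets had a median of -0.22. There Gstm3 rose by 1.14 and Ces2a fell by 1.52. In WD+7KC relative to WD, 0 of them passed 2-fold and the median was -0.08. Gsta1, a target of AhR, rose by 1.22 in CD+7KC relative to CD, and no other of the 5 AhR targets with at least 1 FPKM passed 2-fold.

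Acute-phase genes, which liver induces in inflammation, had medians of -0.18 in WD relative to CD and -0.02 in WD+7KC relative to WD. Of these 20 genes Lcn2 rose and Orm3 fell in WD relative to CD, and 0 passed 2-fold in WD+7KC relative to WD. Enzymes that release arachidonic acid or turn it into other lipid mediators had medians of 0.18 and 0.05 in the same comparisons. Of the 16 with at least 1 FPKM, 4 rose and 1 fell in WD+7KC relative to WD, among them Ptgs1, which rose by 1.12 from 3.33 to 7.37 FPKM.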

How the data were processed

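Liver RNA of 1 library per group was sequenced by the authors from stranded mRNA libraries as 75-base single-end reads, mapped to mm10 (GRCm38) with TopHat2 2.0.13, Bowtie2 2.2.3 and SAMtools 0.1.19, and deposited as FPKM per gene symbol from Cufflinks 2.2.1. The gene annotation and Cufflinks options are not given in the sources used here. Samples were grouped by their titles.

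Fold changes were formed from these deposited FPKM as log2 ratios after adding 0.1, over all genes that reached 1 FPKM in any library. Each count or median of members' changes was set beside that of all such genes, and promoter motifs beside the promoters of such genes and all promoters. Members and gene lists were chosen with earlier results of these data known. Values in every library were given for the 10 members of highest mean, the highest of each subfamily, members past 2-fold in any comparison and members past 1.5-fold in opposite directions under the 2 diets. From the lists, genes past 2-fold and the highest gene were chosen to be named, though only those that bear on members were printed.

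Library size was read from the step that 1 read adds to a low value, over 11834 genes whose RefSeq entry is a single mRNA, after taking 200 bases off the length. Between 71.3% and 72.3% of low values lay within 0.1 of a whole read, and 1 FPKM equals 9.405 to 12.1 reads per kilobase. Exact (Clopper-Pearson) 95% intervals cover counting error only and are given for members with a single RefSeq mRNA. Coordinates came from GENCODE vM21, where 73 members matched by symbol, 1 by synonym (Cyp2c44) and Cyp2d13 by RefSeq only, and window sharing from its transcripts. Promoters came from RefSeq (GRCm38.p6), with 62 of 75 members matched. Alternatives were pseudocounts of 1 and 0.01, 4 scalings, other filters and a 1.5-fold limit, and, added after the data were seen, the members with at most 10% shared windows and the scalings for the counts of library order. The code was tested on simulated data. Python 3.11.15, numpy 2.4.6, pandas 2.3.3, scipy 1.17.1 and matplotlib 3.10.9 were used. Some genes of the lists are not reported here.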

Additional observations from a re-analysis of the deposited data

Results flagged for a closer look

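Cyp2c37 and Cyp3a59 moved past 1.5-fold in opposite directions with 7KC under the 2 diets. Cyp2c37, an arachidonic acid epoxygenase, had a log2 fold change of 0.72 on chow and -0.85 under the Western diet, and Cyp3a59 of 0.67 and -0.68. The counting interval of Cyp2c37 ran from 0.58 to 0.87 on chow and from -1.19 to -0.52 under the Western diet. That of Cyp3a59 ran from 0.55 to 0.80 and from -0.88 to -0.49. Cyp2c37 and Cyp3a59 shared 13.8% and 10.8% of their windows with other transcripts. The 1.5-fold limit was not applied again after rescaling to equal library sums, which shifts WD+7KC relative to WD by 0.22. Each value compares 1 library with 1 library, and the difference between the diets was not tested. No group had enough libraries to look for outlying samples.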

How the results depend on the processing

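No paired analysis was possible because each group had 1 library, and for the same reason no library could be left out. No median of members turned its direction under any alternative, and counts have no direction to turn. Percentages and medians in brackets are those of all genes under the same setting. For the limit on shared windows they cover all genes with at least 1 FPKM. In CD+7KC relative to CD, the 4 rises became 7 of the 65 members above 0 FPKM (3.68%). They became 1 of the 30 members with at most 10% shared windows (1.76%) and 13 at 1.5-fold (5.52%), where the 0 falls became 3 (3.83%). In WD+7KC relative to WD, the 2 rises became 1 with a pseudocount of 1 (1.23%) and 5 of the 65 members above 0 (5.96%). Of the 46 members with at least 1 FPKM in all libraries, 1 rose (1.73%). Of the 39 with at least 10 FPKM, 1 rose (1.18%). The 2 falls became 1 with a pseudocount of 1 (0.432%) and after rescaling to equal sums with (0.714%) or without (0.723%) the 20 highest genes. They also became 1 with at least 1 FPKM in all libraries (0.454%) and with at least 10 FPKM (0.714%). With at most 10% shared windows they became 1 (1.09%), and at 1.5-fold 9 (3.61%). The median of -0.28 became -0.066 after rescaling (0.19) and -0.11 without the 20 highest genes (0.15). In WD relative to CD, the 3 rises became 1 with at least 10 FPKM (1.72%) or at most 10% shared windows (3.26%). The 13 falls became 6 of the 30 members with at most 10% shared windows (2.56%). The median of -0.41 became -0.24 among members above 0 (0.0). In WD+7KC relative to CD+7KC, the 3 rises became 0 with at least 10 FPKM (3.13%) and 1 with at most 10% shared windows (6.29%). The 20 falls became 10 of the 30 members with at most 10% shared windows (3.23%) and, at 1.5-fold, 31 (8.8%). The median of -0.85 became -0.65 after rescaling (0.19), -0.66 without the 20 highest genes (0.18) and -0.96 with at least 10 FPKM (-0.07). The filters differ by construction in the members they hold, and the cause of the other shifts was not tested. A called change of a single member could not turn direction here. Rescaling to equal sums shifted WD+7KC relative to WD by 0.22 on the log2 scale, far less than 1, and a pseudocount keeps the sign. Changes that were not called could turn: in WD+7KC relative to WD, 10 members were higher before rescaling and 21 after it. Of the 204 single changes of members, upper-quartile and median-ratio scaling moved 0 by more than 0.1, and rescaling to equal sums moved 100. Cyp2b9, close to 2-fold, still lost its fall in WD+7KC relative to CD+7KC with upper-quartile scaling (19 falls in place of 20, beside 3.01% of genes). The 15 members in the library order CD+7KC, CD, WD, WD+7KC became 9 after rescaling to equal sums with (3.34%) or without (3.66%) the 20 highest genes. Calls on members near 1 FPKM rest on few reads, so that Cyp2c40, Cyp3a16, Cyp3a44, Cyp4f16 and Cyp4f18 lost a call with a pseudocount of 1, as did Cyp2b9, which lay close to 2-fold.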
